A study of Rattus norvegicus with 18 samples.

Results

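The secreted antagonists of WNT signaling were examined by name: the Dickkopf genes Dkk1, Dkk2, Dkk3 and Dkk4, the secreted Frizzled-related genes Sfrp1, Sfrp2, Sfrp4 and Sfrp5, WNT inhibitory factor 1 (Wif1), and Serpinf1, which encodes pigment epithelium-derived factor (PEDF). All 10 listed symbols were present among the 13188 genes of the deposited table. Most of them were selected by the study from these same data as MYC-regulated, so that their direction with MYC is not independent evidence. The study asked how MYC alters the genes of the WNT pathway, and its RNA-seq was made in Rat1 fibroblasts, an established rat cell line, with no functional endogenous myc (myc−/−).

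RNA was measured in 18 libraries, 3 in each of 6 groups, all labelled as grown in 10% serum. The libraries of a group are labelled by a replicate number only. They are called cultures here, although the labels do not say that they were grown separately. As labelled, 2 groups were not transfected, the myc−/− cells and the same cells with human MYC put back (myc−/− + MYC). The others were myc−/− cells given a control siRNA (myc−/− siCtrl) and myc−/− + MYC cells given either that control siRNA (siCtrl) or one of 2 siRNAs against the aryl hydrocarbon receptor AHR (siAHR-2 and siAHR-5). The siRNAs were used at 40 nM for 48 h. Human MYC was expressed from a retroviral promoter, and the cells without MYC carried the empty vector, so every group derives from 1 knockout line and its reconstituted form. The study's methods speak of repeated experiments with technical replicates in general terms that may not cover the sequencing, so p-values measure the spread between these libraries, which may be technical. In bulk RNA, fewer cells of a type and less RNA per cell cannot be told apart.

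WNT proteins bind Frizzled receptors together with the co-receptors LRP5 and LRP6, which stabilizes β-catenin and lets it act with TCF/LEF factors in the nucleus. Secreted antagonists stop this outside the cell in different ways. The SFRPs, whose cysteine-rich domain resembles that of Frizzled, and WIF1 bind WNT ligands, whereas DKK1, DKK2 and DKK4 bind LRP5 and LRP6, with the Kremen proteins as partners. DKK3 is the divergent member of its family and does not act on LRP6 like the others, and PEDF is a secreted, non-inhibitory serpin that has been reported to bind LRP6.

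The deposited log2 values fell into sets on different scales, a set of 6 libraries with the groups myc−/− + MYC and myc−/− siCtrl, and a set of 12 libraries with the other 4 groups. The antagonists show this themselves: Dkk1 lay between 2.48 and 2.58 throughout the former and between 4.66 and 5.06 throughout the latter, and Sfrp5 lay between 0.63 and 0.66 in the former and between 2.50 and 2.61 in the latter. Groups were compared directly only within a set. The difference of the MYC effects sets the effect measured within 1 set against that within the other, and so rests on both scales. For MYC, the set of 6 offers myc−/− + MYC with myc−/− siCtrl as its control, and the set of 12 offers myc−/− + MYC siCtrl with myc−/− as its control. In both, MYC status changes together with the transfection label, and the effects of each cannot be told apart. If the labels of the myc−/− and the myc−/− siCtrl libraries had been exchanged, each set would be uniform in transfection, and whether they were was not tested. Rat Myc still gave signal in every library, with group means between 8.04 and 10.89, and which part of the gene was counted is unknown, so it does not check the labels. Ahr was lower with either siRNA (log2FC −1.29 for siAHR-2, −1.39 for siAHR-5). All 10 fibroblast markers were in the table and 9 of them had a mean log2 value of at least 6 in both sets. The exception was Col1a2, a fibrillar collagen gene, at 4.02 and 3.68, and the highest were Fn1 at 18.58 in the set of 6 and Vim at 19.29 in the set of 12. Of 5 epithelial markers 4 were in the table, from Epcam at 1.24 to Krt19 at 7.57 in the set of 6 and from Epcam at 2.37 to Krt8 at 8.59 in the set of 12. The 4 endothelial markers ran from Kdr at 0.953 to Cdh5 at 6.82 and from Cdh5 at 4.80 to Tek at 8.94, and the 3 of 4 haematopoietic markers in the table from Ptprc at 4.55 to Cd3e at 8.29 and from Ptprc at 2.85 to Cd68 at 7.24.

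Promoter sequence was available for 5 of the 10 genes (Wif1, Sfrp2, Sfrp5, Dkk1 and Serpinf1) in the collection of promoter windows used here, which came from RefSeq, build GRCr8. The 250 bases before each start were searched on both strands for 4 kinds of short words. These were the E-box CACGTG bound by MYC with MAX, a non-canonical E-box (the word CACGCG, else the word CAAGTG, else the word CACCTG), the core GCGTG of the element bound by AHR, and a TCF/LEF core (CTTTG followed by 2 bases that are each A or T). GCGTG overlaps the reverse complement of CACGCG. Of 33469 such windows in the rat table, 5.59% held the E-box, 31.3% a non-canonical E-box, 25.9% the AHR core and 14.9% a TCF/LEF core. The 3 sequences below are shown because they belong to the 2 antagonists with the largest changes and to Dkk1, the best known β-catenin target among them. Capitals mark the E-box in Wif1 (chr7:58433334-58433363, plus strand), the AHR core in Serpinf1 (chr10:60760899-60761148, minus strand) and the TCF/LEF cores in Dkk1 (chr1:237798651-237798900, minus strand).
Wif1: tcaccccatccaCACGTGcctcttcgggtg
Serpinf1: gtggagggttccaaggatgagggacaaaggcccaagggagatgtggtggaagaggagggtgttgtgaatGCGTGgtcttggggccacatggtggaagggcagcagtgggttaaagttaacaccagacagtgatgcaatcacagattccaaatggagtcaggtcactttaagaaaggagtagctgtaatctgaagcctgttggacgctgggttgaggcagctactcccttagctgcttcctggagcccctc
Dkk1: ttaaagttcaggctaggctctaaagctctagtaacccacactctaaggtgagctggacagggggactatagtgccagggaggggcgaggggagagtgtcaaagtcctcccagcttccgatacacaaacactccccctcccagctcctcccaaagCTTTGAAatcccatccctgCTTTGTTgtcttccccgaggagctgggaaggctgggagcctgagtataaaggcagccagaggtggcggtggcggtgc

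The Wif1 E-box lay 233 to 228 bases before the start in the table. The annotated gene begins 253 bases further upstream than that start. The whole Wif1 window therefore lies inside the annotated gene and not upstream of it, and only 30 bases are shown. The Wif1 window also held CACGCG, 76 to 71 bases before the start, with the AHR core on the other strand of the same bases. Sfrp2 likewise held CACGCG and the AHR core at 1 place, 163 to 158 bases before the start. The Serpinf1 window had the AHR core 181 to 177 bases before the start and no E-box of either kind. Dkk1 had 2 TCF/LEF cores, at 96 to 90 and 77 to 71 bases, and Sfrp5 had a TCF/LEF core 112 to 106 bases and CACCTG 218 to 213 bases before the start. These matches are descriptions of sequence, and no binding was measured here.

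**Figure D1:**
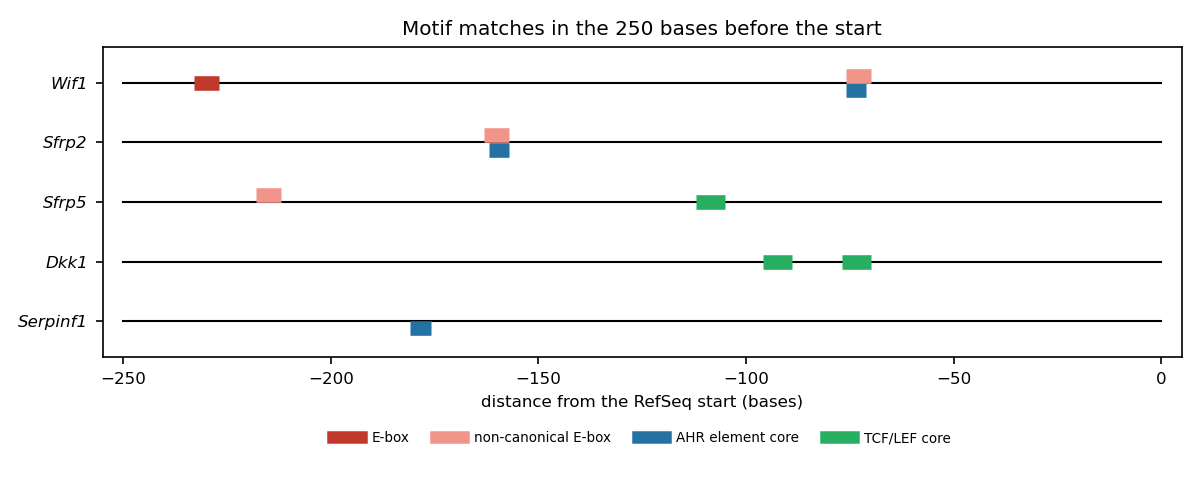
Positions of motif matches in the 250 bases before the RefSeq start (x axis, bases; each line is 1 gene, each block 1 match). The E-box is found in Wif1 and in none of the other 4 windows, and the AHR core in Wif1, Sfrp2 and Serpinf1. The Wif1 window lies inside the annotated gene, which begins further upstream than the start used.

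Within the set of 6, MYC-expressing cells had higher mRNA for 3 antagonists and lower mRNA for 1. Serpinf1, Wif1 and Dkk2 rose 2.27-fold, 2.26-fold and 1.73-fold, and Sfrp4 fell 2.12-fold. Within the set of 12, Wif1 rose 1.58-fold and Serpinf1 fell 4.41-fold, opposite to its change in the set of 6. A gene is said to rise or fall where limma gave a fold of at least 1.5 and an adjusted p of at most 0.01. Of all genes, 26.8% passed in the set of 6 (12.5% higher and 14.3% lower) and 25.5% in the set of 12 (10.8% higher and 14.7% lower). The antagonists' 4 of 10 and 2 of 10 stand beside those shares, and their median log2FC was 0.05 and 0.00, against −0.00 for all genes in either set. Fibroblast markers moved in the same comparisons, with 5 of 10 falling and 1 rising in the set of 6 and 6 of 10 falling in the set of 12. Markers of other cell types moved too: the keratin gene Krt8 rose in both sets (log2FC 1.70 and 1.17) and Cd3e fell in both (−2.09 and −1.13), while Tek rose in the set of 6 (1.61). The part of any of these markers in the results was not tested. The groups did not overlap for 8 and 7 of the 10 antagonists, against 78.8% and 70.5% of all genes, so that absence of overlap sets no antagonist apart from the other genes.

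**Figure D2:**
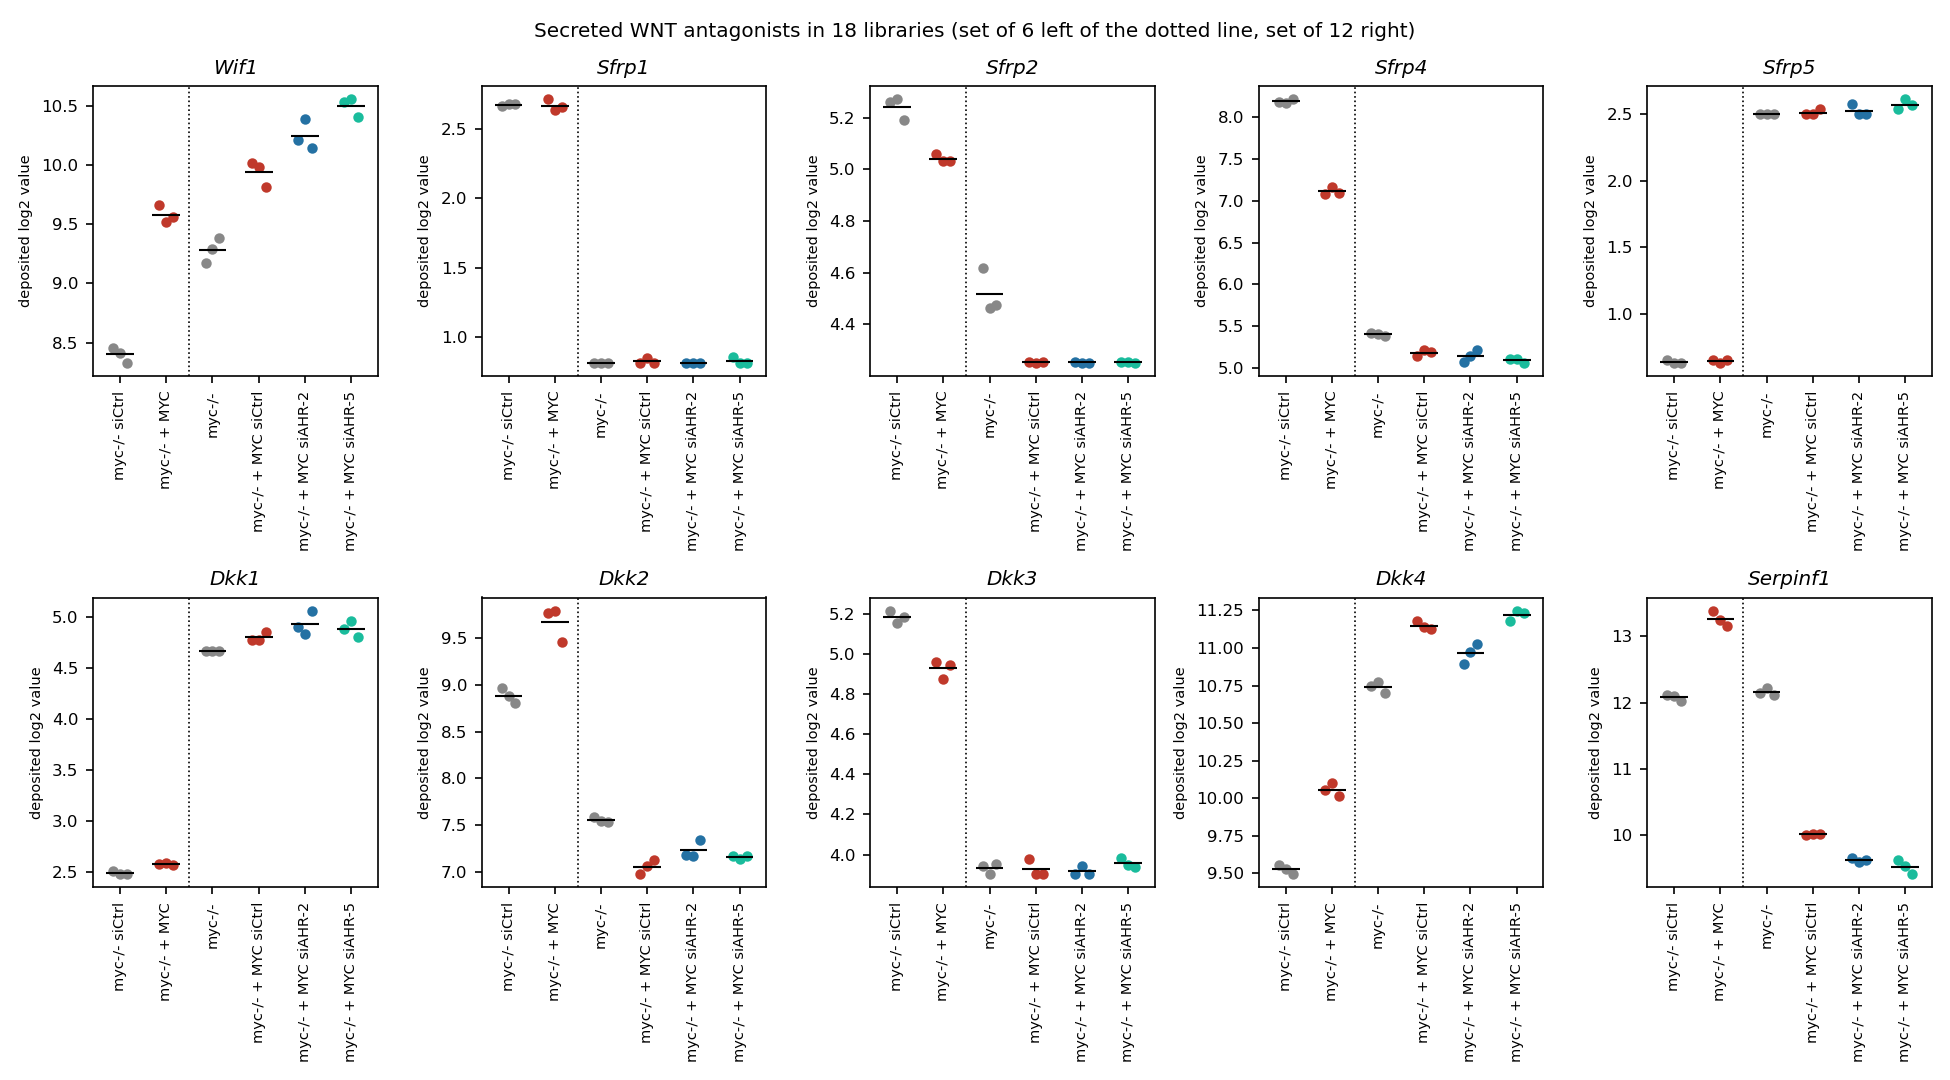
Deposited log2 values (y axis, a scale of its own in each panel) of the 10 antagonists in 18 libraries by group. Points are cultures, short lines are group means of 3, and the dotted line parts the set of 6 from the set of 12, which are not on 1 scale. Serpinf1 is higher with MYC on the left and lower with MYC on the right, and Wif1 is higher with MYC in both.

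Among the antagonists that bind WNT ligands, Wif1 was higher with MYC in every culture of both sets. It measured 8.46, 8.42 and 8.33 in myc−/− siCtrl cells and 9.66, 9.52 and 9.56 in myc−/− + MYC cells of the set of 6. The groups were more than 1 log2 unit apart, with a log2FC of 1.18 (SE, the standard error, 0.0628, adjusted p of 1.26e-08 in limma). The set of 12 had Wif1 at 9.18, 9.29 and 9.38 in myc−/− cells and 10.02, 9.99 and 9.82 in myc−/− + MYC siCtrl cells, again without overlap. The log2FC there was 0.66 (SE 0.0824, adjusted p of 6.91e-04 in limma). As a log2 value the rise was 0.52 smaller in the set of 12 by the test of the difference (adjusted p of 6.46e-04 in limma), which is below the fold cutoff and passes it after quantile normalization.

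Sfrp4 encodes a WNT-binding SFRP that is best known from bone and other connective tissue. It measured 8.19, 8.18 and 8.22 in myc−/− siCtrl cells and 7.08, 7.16 and 7.10 in myc−/− + MYC cells, a log2FC of −1.08 (SE 0.0570, adjusted p of 1.13e-08 in limma). In the set of 12, where its values were low, it lay at 5.42, 5.40 and 5.38 in myc−/− cells and at 5.14, 5.21 and 5.19 in myc−/− + MYC siCtrl cells. These groups did not overlap either, but the log2FC was −0.22 (SE 0.0280, adjusted p of 7.08e-04 in limma), short of the fold cutoff. The MYC effects on Sfrp4 differed between the sets by 0.86 (SE 0.0677, adjusted p of 5.85e-08 in limma).

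The other SFRP genes examined by name had low deposited values. Sfrp2 measured 5.26, 5.27 and 5.19 in myc−/− siCtrl cells and 5.06, 5.03 and 5.03 in myc−/− + MYC cells (log2FC −0.20, adjusted p of 9.13e-04 in limma). In the set of 12 it was 4.62, 4.46 and 4.47 in myc−/− cells, whereas all 9 libraries of MYC-expressing cells sat at the lowest value of the gene in that set, 4.25, within 0.005. The log2FC with MYC was −0.27 (SE 0.0439, adjusted p of 0.00238 in limma). Both differences were short of the fold cutoff. The transformation of the values is unknown and the lowest value differs between genes, so a log2FC measured from that lowest value may not be a fold in RNA. Sfrp1 lay between 2.64 and 2.72 in the set of 6, with overlapping groups (log2FC −0.01, adjusted p of 0.845 in limma), and between 0.81 and 0.85 in the set of 12, where 10 of 12 libraries were at its lowest value. Sfrp5 had overlapping groups in the set of 6 (log2FC 0.01, adjusted p of 0.601 in limma) and was at its lowest value in 7 of 12 libraries of the set of 12. No fold is given for a gene where over 50% of the libraries compared were at its lowest value.

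Of the antagonists that bind LRP5 and LRP6, Dkk2 had MYC effects of opposite sign in the sets. It measured 8.96, 8.88 and 8.80 in myc−/− siCtrl cells and 9.77, 9.79 and 9.46 in myc−/− + MYC cells, a log2FC of 0.79 (SE 0.0885, adjusted p of 7.63e-06 in limma). The corresponding values in the set of 12 were 7.58, 7.55 and 7.53 in myc−/− cells and 6.97, 7.06 and 7.13 in myc−/− + MYC siCtrl cells. The log2FC of −0.50 (SE 0.0541, adjusted p of 3.62e-04 in limma) was short of the fold cutoff, although the groups did not overlap. After quantile normalization it was −0.31. The difference between these effects, −1.29 (SE 0.119, adjusted p of 3.41e-07 in limma), passed both cutoffs.

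Dkk4 was higher with MYC in every culture of both sets by less than the fold cutoff. It measured 9.56, 9.53 and 9.49 without and 10.05, 10.10 and 10.01 with MYC in the set of 6 (log2FC 0.53, SE 0.0511, adjusted p of 2.11e-06 in limma). The values in the set of 12 were 10.75, 10.77 and 10.70 without and 11.18, 11.14 and 11.13 with MYC (log2FC 0.41, SE 0.0393, adjusted p of 2.12e-04 in limma). Dkk1, the founding member of the family, was also higher with MYC without overlap in both sets, but by small amounts at low values. It measured 2.50, 2.48 and 2.48 without and 2.58, 2.58 and 2.57 with MYC in the set of 6 (log2FC 0.09, adjusted p of 8.70e-04 in limma). In the set of 12 its log2FC was 0.14 (adjusted p of 0.00585 in limma), with the 3 myc−/− libraries at 4.66 and the myc−/− + MYC siCtrl libraries at 4.77, 4.77 and 4.85. Within 0.005, all 3 myc−/− libraries and 2 of the 3 myc−/− siCtrl libraries were at the lowest value of Dkk1 in their set, so these differences too may not be folds in RNA. For neither Dkk4 (−0.12, adjusted p of 0.154 in limma) nor Dkk1 (0.05, adjusted p of 0.293 in limma) did the difference between the sets pass the test. Leaving out 1 library at a time gave 0.0216 to 0.0635 for the Dkk1 difference. Under alternatives that difference reached 0.135, the Dkk4 difference −0.0357, and the Dkk1 effect in the set of 6 fell to 0.0469.

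Dkk3 was the Dickkopf gene with lower values under MYC in the set of 6, at 5.21, 5.15 and 5.19 without and 4.96, 4.87 and 4.95 with MYC (log2FC −0.26, SE 0.0417, adjusted p of 1.60e-04 in limma), short of the fold cutoff. In the set of 12 it lay between 3.90 and 3.98 in every library, and the groups overlapped (log2FC −0.00, adjusted p of 0.942 in limma). Within 0.005, 5 of the 12 libraries were at the lowest value of Dkk3 in that set, so a fall with MYC may not have been visible there. The difference between the sets was 0.25 (adjusted p of 6.97e-04 in limma), also below the fold cutoff, and it rests on those low values.

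Serpinf1 changed with MYC in opposite directions in the sets, by about as much as Wif1 in the set of 6 and by more than any other of the 10 genes in the set of 12. Its values in the set of 6 were 12.11, 12.10 and 12.03 in myc−/− siCtrl cells and 13.39, 13.25 and 13.16 in myc−/− + MYC cells. Those in the set of 12 were 12.14, 12.22 and 12.11 in myc−/− cells and 10.01, 10.02 and 10.02 in myc−/− + MYC siCtrl cells. The groups were apart by far more than the spread between cultures in both sets, with a log2FC of 1.19 (SE 0.0526) and −2.14 (SE 0.0414). Among all 13188 genes, Serpinf1 ranked 459 from the top in the set of 6 and 256 from the bottom in the set of 12. The effects differed by −3.33 (SE 0.0766, adjusted p of 1.53e-13 in limma), and by this difference it ranked 7 from the bottom of the table.

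By the test of the difference, the MYC effects on Dkk2, Serpinf1 and Sfrp4 differed between the sets, compared with 16.5% of all genes. The Sfrp2 difference was −0.07 (adjusted p of 0.381 in limma), and none is given for Sfrp1 and Sfrp5. The sets differ in scale and, as labelled, in which group was transfected. The part of either in these differences cannot be told apart from that of MYC. Genes with a mean log2 value below 6 seldom passed: in the set of 6, 95 of 2916 did (3.26%), against 33.5% of the genes at or above 6, and in the set of 12, 23 of 2972 (0.774%) against 32.7%. Of the antagonists, Dkk1, Dkk3, Sfrp1, Sfrp2 and Sfrp5 had means below 6 in both sets, and Sfrp4 in the set of 12.

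**Figure D3:**
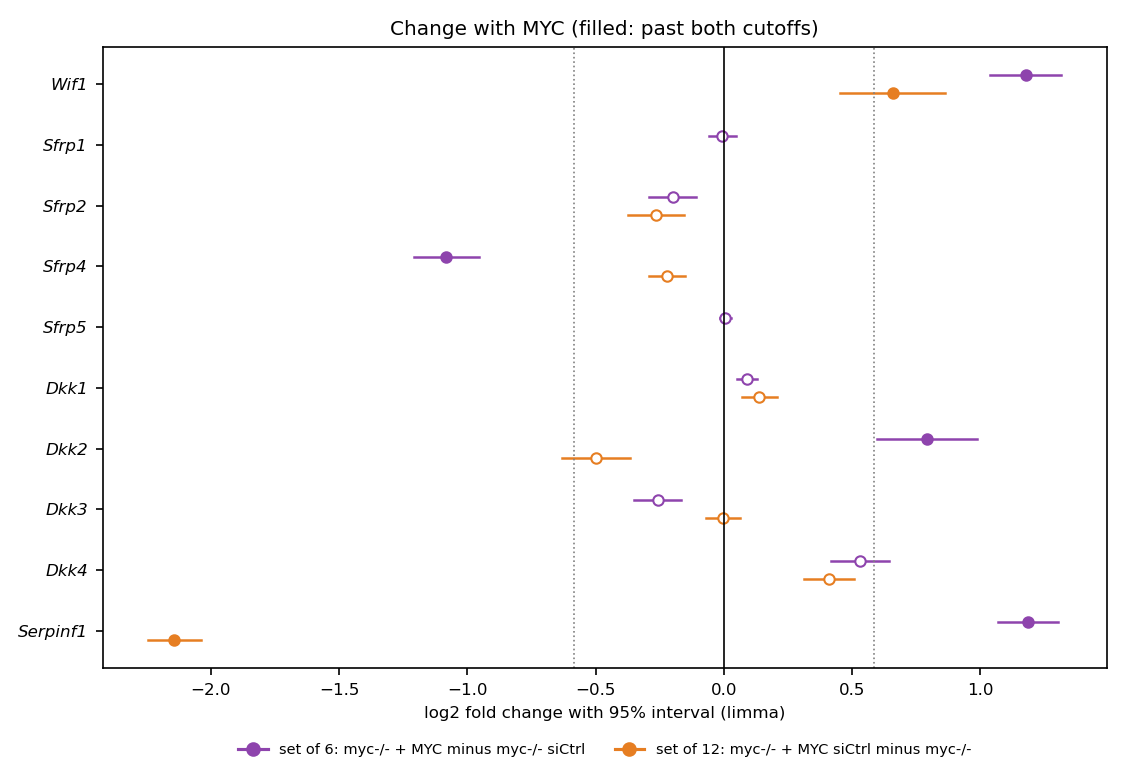
Log2 fold change with MYC (x axis) for each antagonist in each set, with 95% intervals from limma; filled points passed both cutoffs and dotted lines mark the fold cutoff of 1.5. Serpinf1 lies at 1.19 in the set of 6 and at −2.14 in the set of 12, and Sfrp1 and Sfrp5 have no point in the set of 12 because most of those libraries were at the genes' lowest values.

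Cells with MYC that received siAHR-2 or siAHR-5 were compared with those that received siCtrl, which asks whether the antagonists depend on AHR in MYC-expressing cells. Wif1 was higher and Serpinf1 lower in every culture given either siRNA, each by less than the fold cutoff. With limma, 0 of the 10 antagonists passed both cutoffs with either siRNA, compared with 0.47% of all genes for siAHR-2 and 2.33% for siAHR-5. At an unadjusted p under 0.05 there were 4 with siAHR-2 (Dkk2, Dkk4, Wif1 and Serpinf1) and 4 with siAHR-5 (Wif1, Serpinf1, Sfrp4 and Sfrp5), against 40.4% and 47.8% of all genes. The siAHR and siCtrl groups did not overlap for 4 and 5 antagonists, against 43.3% and 50.5% of all genes, so both counts are near the background. The comparisons share their siCtrl libraries, so the values for the siRNAs are given side by side and are not separate evidence. Of the 10 fibroblast markers, 0 passed both cutoffs with siAHR-2 and 1 with siAHR-5, Thy1 (log2FC 0.75). Their median log2FC was −0.02 with siAHR-2 and 0.01 with siAHR-5, so the list as a whole did not shift. Vim was lower with both siRNAs (−0.36 and −0.48), by about as much as Serpinf1. Other markers had opposite signs with siAHR-2 and siAHR-5: Col1a1 (−0.13 and 0.22), Pdgfra (0.11 and −0.07) and Col3a1 (−0.04 and 0.02). Pdgfrb was at −0.09 with siAHR-2 and 0.55 with siAHR-5, both short of the fold cutoff. The part of these markers in the results was not tested.

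Wif1 measured 10.02, 9.99 and 9.82 with siCtrl, 10.21, 10.39 and 10.14 with siAHR-2, and 10.53, 10.55 and 10.40 with siAHR-5. Every siAHR culture was above every siCtrl culture. The log2FC was 0.31 with siAHR-2 (SE 0.0876, adjusted p of 0.0517 in limma) and 0.56 with siAHR-5 (SE 0.0728, 95% interval 0.37 to 0.74, adjusted p of 0.00287 in limma). The latter is close to the fold cutoff, which it passed at 0.60 without siAHR-5 replicate 3 and at 0.60 without siCtrl replicate 1. The cultures with siAHR-5 were above all cultures with siAHR-2, by 0.25 (adjusted p of 0.0560 in limma). The myc−/− cultures of the same set, at 9.18 to 9.38, lay below all of these.

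Serpinf1 measured 10.01, 10.02 and 10.02 with siCtrl, 9.65, 9.60 and 9.62 with siAHR-2, and 9.62, 9.53 and 9.41 with siAHR-5. All 6 siAHR cultures were below the siCtrl cultures, which varied little. The log2FC was −0.39 with siAHR-2 (SE 0.0309, adjusted p of 0.00113 in limma) and −0.49 with siAHR-5 (SE 0.0597, adjusted p of 0.00222 in limma). After quantile normalization the siAHR-5 value was −0.64, past the fold cutoff. The siRNAs overlapped in Serpinf1 and differed by −0.10 (95% interval −0.26 to 0.05, adjusted p of 0.245 in limma). Leaving out 1 library at a time gave −0.153 to −0.0491 for this difference, and an alternative gave −0.184.

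Dkk4 measured 11.18, 11.14 and 11.13 with siCtrl, 10.89, 10.97 and 11.03 with siAHR-2, and 11.18, 11.25 and 11.23 with siAHR-5. The siAHR-2 cultures were below all siCtrl cultures (log2FC −0.18, adjusted p of 0.0236 in limma), while the siAHR-5 cultures were above all of them (log2FC 0.07, adjusted p of 0.132 in limma). The siAHR-5 value did not pass the test and fell to 0.00432 after quantile normalization and to 0.0117 with median centring, so no direction is read from it. The difference between the siRNAs was 0.26 (SE 0.0431, adjusted p of 0.00652 in limma), below the fold cutoff. In that comparison, 0 of the 10 antagonists passed both cutoffs in limma, against 2.18% of all genes. At an unadjusted p under 0.05 there were 2 (Dkk4 and Wif1), against 46.8% of all genes, and the siRNAs did not overlap for 3 (Dkk4, Wif1 and Dkk2), against 49.5%. The remaining differences, siAHR-5 minus siAHR-2, were −0.07 for Dkk2, −0.05 for Dkk1 and for Sfrp4, 0.04 for Dkk3 and 0.05 for Sfrp5, while Sfrp1 and Sfrp2 were mostly at their lowest values. Leaving out 1 library at a time gave −0.103 to −0.0172 for Dkk2 and −0.0810 to −0.00983 for Sfrp4. The ranges were 0.0276 to 0.0532 for Dkk3 and 0.0260 to 0.0735 for Sfrp5.

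Dkk2 measured 6.97, 7.06 and 7.13 with siCtrl, 7.17, 7.17 and 7.34 with siAHR-2, and 7.17, 7.13 and 7.16 with siAHR-5. Both siRNAs lay above siCtrl, by 0.17 (adjusted p of 0.117 in limma) and 0.10 (adjusted p of 0.165 in limma), and neither difference passed the test. After quantile normalization the siAHR-5 value turned to −0.0451. Dkk1 overlapped with siCtrl under both siRNAs (log2FC 0.13 and 0.08, adjusted p = 0.187 and 0.246 in limma). Leaving out 1 library at a time gave 0.0665 to 0.179 and 0.0398 to 0.118, and median centring gave 0.0189 for siAHR-5. Sfrp4 was 5.07, 5.14 and 5.21 with siAHR-2, overlapping siCtrl (log2FC −0.04), and 5.11, 5.11 and 5.06 with siAHR-5 (log2FC −0.09, adjusted p of 0.0457 in limma). For Sfrp4, leaving out 1 library at a time gave −0.0775 to −0.00630 with siAHR-2, and the siAHR-5 value reached −0.147 under an alternative. Sfrp5 reached 2.61 with siAHR-5 (log2FC 0.06, adjusted p of 0.0867 in limma), a difference that median centring took to 4.91e-04. Dkk3 had a log2FC of 0.03 (adjusted p of 0.451 in limma), whose sign turned with quantile normalization or median centring. With siAHR-2, Dkk3, Sfrp1 and Sfrp5 were mostly at their lowest values, as Sfrp1 was with siAHR-5, and no fold is given. Sfrp2 was at its lowest value in all 9 libraries of MYC-expressing cells in the set of 12, where a decrease with siRNA could not have been seen.

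**Figure D4:**
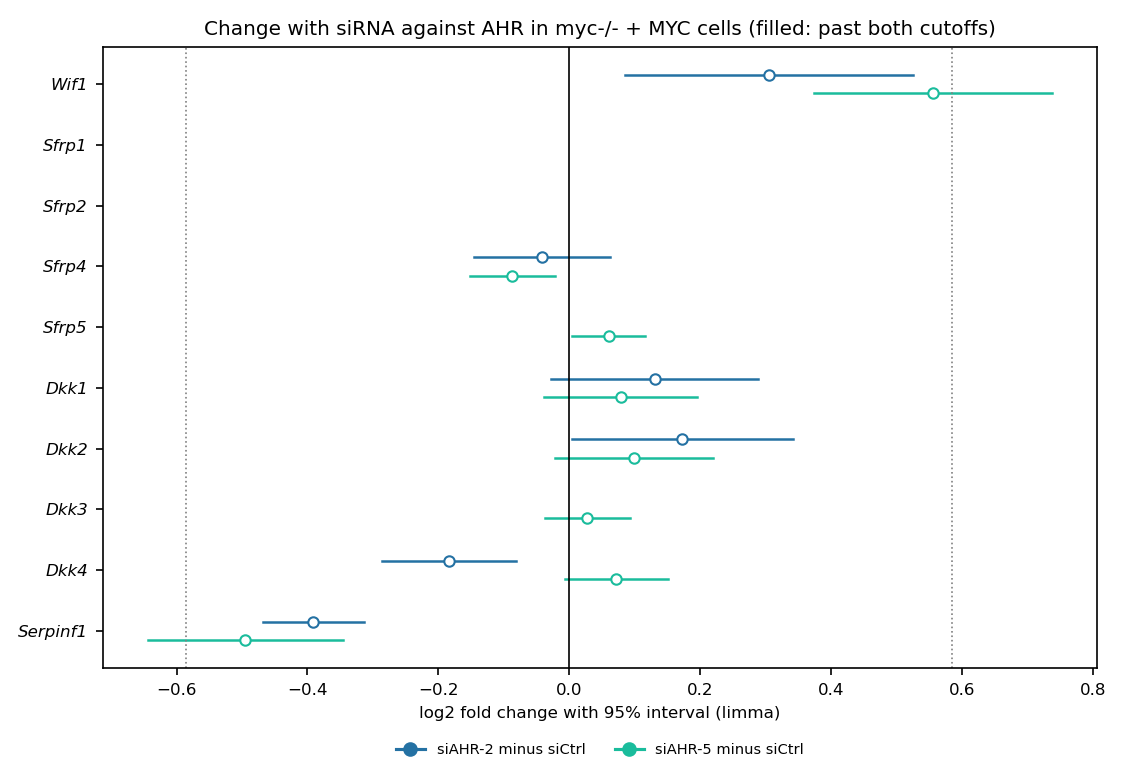
Log2 fold change with siAHR-2 and siAHR-5 against siCtrl (x axis) in myc−/− + MYC cells, with 95% intervals from limma; dotted lines mark the fold cutoff of 1.5 and open points did not pass both cutoffs. Wif1 lies above 0 and Serpinf1 below 0 with both siRNAs, and genes mostly at their lowest value have no point.

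The rest of the pathway was counted in the same fits, from lists written with earlier results of these data known. Of 5 measured other secreted inhibitors, Frzb rose with MYC in both sets (log2FC 2.84 and 0.74), and the others did not pass. Frzb is an SFRP family gene outside those examined by name, and its product also binds WNT. Among 10 measured WNT ligands, 1 fell in the set of 6 and 3 in the larger set, led in both by Wnt6 (log2FC −2.17 and −2.15). Over all 41 genes of these lists, 13 passed with MYC in the smaller set and 16 in the larger, compared with 26.8% and 25.5% of all genes. Of 15 receptors and DKK partners, 2 rose and 2 fell in the set of 6, and 1 rose and 4 fell in the set of 12. The WNT receptor gene Fzd2 rose (log2FC 1.40 and 0.84), whereas Fzd1 of the same family fell (log2FC −1.20 and −1.84). Fzd4 rose in the set of 6 (log2FC 0.77). Ror2, a receptor of β-catenin-independent WNT signaling, fell in both sets (log2FC −2.72 and −4.14).

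The direct partners of the Dickkopf proteins were looked up after their values were seen. Kremen1, a DKK receptor, was at a log2FC of −0.57 in the set of 6, short of the fold cutoff, and fell in the set of 12 (log2FC −0.84, adjusted p of 6.51e-04 in limma). Its relative Kremen2 had low values and a log2FC of 0.02 in both sets. Lrp5 had a log2FC of 0.07 and 0.26, and Lrp6 of 0.48 and −0.13, none past the fold cutoff. With siAHR-5, Lrp6 was the 1 of 41 genes of these lists past both cutoffs (log2FC −0.60, adjusted p of 0.00100 in limma), compared with 2.33% of all genes, and with siAHR-2 there were 0 of 41 in limma, compared with 0.47%. At an unadjusted p under 0.05 there were 20 of 41 with either siRNA, where 40.4% of all genes are with siAHR-2 and 47.8% with siAHR-5. Of 4 secreted activators and their receptors, Rspo3 rose and Rspo1 fell with MYC in both sets, both encoding R-spondins, which amplify WNT signaling. Of 7 β-catenin targets and feedback genes, 3 rose and 2 fell in the set of 6, and 2 rose and 3 fell in the set of 12. Lef1 and Rnf43 rose in both (Lef1 at a log2FC of 1.32 and then 1.90, Rnf43 at 1.65 and then 0.62, set of 6 first), and Ccnd1, which encodes cyclin D1, fell in both (−1.52 and −0.89). The largest fall of this list in the set of 12 was that of Nkd2, a feedback inhibitor of WNT signaling (log2FC −1.23), which was short of the fold cutoff in the set of 6 (−0.51).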

How the data were processed

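The members and the pathway lists were chosen with earlier results of these data known. According to the study's methods and the submitters' processing notes, the authors aligned the reads to rn6 with HISAT2 2.1.0, removed genes with fewer than 10 reads in total and ran DESeq2. How reads were assigned to genes, and from which annotation, is not given in the sources used here. The authors deposited log2 values, 1 per gene and library, without pooling replicates. They are not CPM: taken off the log scale they sum to 86.3 to 94.0 times the CPM total per library in the set of 6 and to 136 to 161 times in the set of 12. The transformation is not given in the sources used here, read depth is unknown, and the number of cultures limits the precision. Because the values are on a log scale and not per length, a difference in level between genes is not read as one in RNA amount. Means are used across genes only to sort low from high values and to list markers.

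Each comparison was fitted on all 13188 genes with limma 3.58.1 in R 4.3.3 (a mean-variance trend, no covariate, 3 libraries against 3), with Benjamini-Hochberg adjustment over all genes. The difference of the MYC effects was an interaction contrast over 12 libraries in 4 groups, each effect taken within its own set. The cutoffs, a fold of 1.5 and an adjusted p of 0.01, are those of the study's results. No library was dropped or imputed, 0 value columns lacked a sample, and no 2 libraries of a group held identical values. The fits were tested on simulated data, with an outcome that is not given here. All 10 members are described, with a fold wherever they were not mostly at their lowest value, and other pathway genes by the largest changes past the cutoffs, at most 2 per direction, list and comparison. The rule for values at the lowest value (over 50% of the libraries within 0.005) and the division at a mean of 6 were chosen after the values were seen. Alternatives were an FDR below 5% without a fold cutoff, all 18 libraries in 1 fit, no trend, quantile normalization, median centring, only genes averaging 5 or more, an added pseudocount of 1, a replicate block and leaving out each library.

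Promoter windows came from RefSeq, build GRCr8, which is not the build of the files. Dkk2, Dkk3, Dkk4, Sfrp1 and Sfrp4 had no window in the collection used here, which does not mean that RefSeq lacks them. Plots used Python 3.11.15 and matplotlib 3.10.9. Apcdd1, Sp5, Tcf7, Znrf3 and the human MYC transgene were not analysed here.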

Additional observations from a re-analysis of the deposited data

Results flagged for a closer look

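The MYC effects of 3 antagonists differed between the set of 12 and the set of 6 past both cutoffs by limma's test of the difference. On the log2 scale the difference (set of 12 minus set of 6) was −3.33 for Serpinf1, with effects of −2.14 and 1.19, and −1.29 for Dkk2, with effects of −0.50 and 0.79. For Sfrp4 it was 0.86, with effects of −0.22 and −1.08, where the values in the set of 12 were low. The sets differ in scale and, as labelled, in which group was transfected, and these cannot be told apart here.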

How the results depend on the processing

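With each antagonist's log2FC taken for the 48 combinations of gene and comparison that have one, all 9 that passed the cutoffs kept their direction and passed under every alternative run (144 of 144 values). Among these alternatives, the FDR below 5% without a fold cutoff is looser than the main cutoffs on the same fit, so those values could not fail. Leaving out each library gave 1.14 to 1.21 and 0.61 to 0.72 for Wif1, 1.12 to 1.24 and −2.16 to −2.11 for Serpinf1 with MYC in the sets of 6 and 12, and 0.73 to 0.90 for Dkk2 and −1.11 to −1.06 for Sfrp4 in the set of 6. Of the 560 values of the other combinations, 525 kept direction and call, 21 passed and 14 changed sign. The 21 include every call gained only by dropping the fold cutoff, which is a looser rule and not a change of normalization or libraries. Without a fold cutoff, at an FDR below 5%, the antagonists called were 8 and 7 for MYC, 2 for siAHR-2, 3 for siAHR-5, 1 between the siRNAs and 5 for the difference of the MYC effects, and the genes called were 10051, 8538, 3860, 5169, 5151 and 7235. Quantile normalization called 1 antagonist with siAHR-5, Serpinf1, and leaving out each library called 0 to 1, Wif1. Signs changed for small values: with quantile normalization Dkk3 with MYC in the set of 12 (0.0368), Dkk2 (−0.0451) and Dkk3 (−0.00897) with siAHR-5. They changed with median centring for Sfrp5 with MYC in the set of 6 (−0.0364), Dkk3 with MYC in the set of 12 (0.0392), Dkk3 with siAHR-5 (−0.0320) and the Sfrp2 difference between the sets (0.0199). Leaving out each library gave −0.0283 to 0.0119 for Sfrp1 in the set of 6, −0.0292 to 0.00955 for Dkk3 in the set of 12 and −0.100 to 0.0121 for Dkk1 between the siRNAs. The cause was not tested. Same-numbered cultures did not deviate together in every pair of any comparison (correlations from −0.256 to 0.242, both for MYC in the set of 12, with at least 1 pair below 0 in each comparison). Adding the replicate block changed no antagonist's call, and left 0 genes past the cutoffs for siAHR-2 by limma, against 62 without it (5030 at an unadjusted p under 0.05). Read depth is unknown, so what it limits cannot be given.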
